A study of Mus musculus with 17 samples.

Results

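RUNX1 binding sites in cells induced to make the leukaemia fusion CBFB-MYH11 (CM) were compared with those in control cells given the same doxycycline treatment. The comparison used 4 of the series' 17 samples, all RUNX1 ChIP-seq libraries of 416B, a mouse myeloid progenitor cell line: 2 of CM +Dox cells and 2 of Control +Dox cells. CM +Dox cells carried 2 stably integrated constructs, the first with the tetracycline silencer tTS, the transactivator rtTA and blasticidin resistance under an Ef1alpha promoter, and the second with the type A Cbfb-Myh11 cDNA joined through an F2A element to mCherry under a tetracycline-responsive element. Control +Dox cells carried the first construct with a version of the second that lacked CM. Both were expanded from clones grown from single sorted cells, and both received 1 ug/ml doxycycline for 24 hours. Fusion and clone therefore cannot be told apart in the comparison of these 4 libraries alone, and nothing states whether the 2 replicates of a group were separate cultures. Peaks of the 4 lists with a score of 9 or more, the score being the −log10 p-value the authors deposited for each peak, were merged where they overlapped by 1 bp into 17650 sites. A site called in both Control +Dox libraries and neither CM +Dox library is referred to as lost, and a site called in both CM +Dox libraries and neither Control +Dox library as gained. There were 3656 lost sites, 612 gained sites and 5029 sites called in all 4 libraries.

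RUNX1 is the DNA-binding subunit of core binding factor and recognises the sequence TGTGGT. CBFB, its partner, does not touch DNA but stabilises RUNX1 on it. When chromosome 16 is inverted, as in a subtype of acute myeloid leukaemia, the start of CBFB is joined to the coiled-coil tail of smooth muscle myosin heavy chain, MYH11, and the fusion protein retains the RUNX1-binding part of CBFB. RUNX1 is needed for the emergence of blood stem cells and for megakaryocyte and lymphoid differentiation, and in myeloid progenitors it sits at promoters and at distal enhancers together with factors such as PU.1 and GATA2.

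Promoters from each class of site are printed first, so that the motif can be seen in its place at genes where RUNX1 was lost, gained or called throughout. They are the 2 highest-ranked lost, gained and shared sites at a gene start that overlap a TGTGGT, on either strand, in the 250 bases before the start. Being picked for the motif, they are examples and do not stand for their class. The sequences are RefSeq's, from build GRCm38.p6, which mm10 denotes, and run 5′ to 3′ on the gene's strand with each motif in capitals. Cpa3 (chr3:20242182-20242431, minus strand) encodes mast cell carboxypeptidase A3, and St7 (chr6:17748920-17749169, plus strand) was first described as a candidate tumour suppressor gene. Both were lost. Sbk2 (chr7:4964407-4964656, minus strand) encodes a predicted serine/threonine kinase and Cd82 (chr2:93462503-93462752, minus strand) a tetraspanin of the cell surface, and both were gained. AI467606 (chr7:127091186-127091435, plus strand) and Wdr5 (chr2:27514897-27515146, plus strand), a subunit of histone H3 lysine methyltransferase complexes, were called in all 4 libraries.
Cpa3: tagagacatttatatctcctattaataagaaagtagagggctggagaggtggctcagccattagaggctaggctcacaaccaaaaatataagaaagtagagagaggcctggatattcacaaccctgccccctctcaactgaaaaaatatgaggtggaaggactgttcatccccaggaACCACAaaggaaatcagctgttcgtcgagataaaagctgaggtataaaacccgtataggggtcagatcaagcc
St7: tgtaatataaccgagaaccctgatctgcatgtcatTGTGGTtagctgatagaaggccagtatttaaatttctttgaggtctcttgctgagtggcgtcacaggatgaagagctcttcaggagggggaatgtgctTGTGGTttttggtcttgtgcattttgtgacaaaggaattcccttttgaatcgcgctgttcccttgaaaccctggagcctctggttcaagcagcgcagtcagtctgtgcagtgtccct
Sbk2: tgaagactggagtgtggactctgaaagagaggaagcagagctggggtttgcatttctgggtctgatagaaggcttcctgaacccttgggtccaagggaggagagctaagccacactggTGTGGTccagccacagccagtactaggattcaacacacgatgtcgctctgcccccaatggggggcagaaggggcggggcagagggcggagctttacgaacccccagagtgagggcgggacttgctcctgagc
Cd82: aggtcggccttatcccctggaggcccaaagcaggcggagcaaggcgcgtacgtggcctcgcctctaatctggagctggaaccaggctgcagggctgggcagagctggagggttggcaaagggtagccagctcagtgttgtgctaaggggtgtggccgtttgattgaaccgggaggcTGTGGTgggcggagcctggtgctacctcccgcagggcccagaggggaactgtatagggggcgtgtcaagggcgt
AI467606: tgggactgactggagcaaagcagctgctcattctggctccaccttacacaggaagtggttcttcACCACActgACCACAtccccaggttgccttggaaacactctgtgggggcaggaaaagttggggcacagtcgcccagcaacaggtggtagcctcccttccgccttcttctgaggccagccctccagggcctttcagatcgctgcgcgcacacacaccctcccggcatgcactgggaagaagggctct
Wdr5: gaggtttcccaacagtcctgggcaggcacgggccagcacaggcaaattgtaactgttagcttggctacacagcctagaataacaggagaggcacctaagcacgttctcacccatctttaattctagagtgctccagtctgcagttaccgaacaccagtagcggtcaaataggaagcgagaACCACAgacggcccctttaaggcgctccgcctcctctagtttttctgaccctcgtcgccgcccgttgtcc

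The Cpa3 peak was called in neither CM +Dox library and at scores of 94.5 and 105 in Control +Dox replicates 1 and 2, and its motif begins at position -73 from the gene start. Its scores were 114 and 144 in CM -Dox cells, the same fusion clone without doxycycline, and 92.1 and 108 in Control -Dox cells. The St7 peak, with 2 motifs, was absent from both CM +Dox lists and was called at 89.3 and 115 in CM -Dox cells and at 89.6 and 57.4 in Control +Dox cells. The Sbk2 peak scored 31.8 and 38.1 in CM +Dox cells and 28.3 and 24.5 in CM -Dox cells, and was called in neither Control +Dox library. At Wdr5 the scores were 135 and 180 in CM +Dox cells and 214 and 125.3 in Control +Dox cells, so the groups overlapped. Across all promoters, the motif was found in 21.0% of the 457 with a lost site, 12.4% of the 225 with a gained site and 13.5% of the 2011 with a site in all 4 libraries, against 15.0% of all 21263 listed promoters of 300 bp. The sequence CCGGAA, read on both strands and bound by ETS-family factors such as FLI1, was in 42.0%, 28.0% and 38.1% of these 3 classes and in 18.7% of all promoters. Median GC content was 59.0% in lost, 64.7% in gained and 64.0% in shared promoters, against 56.3% in all promoters. The motif shares were not matched for GC content. A GATA motif, AGATAA on either strand, was in 6.57%, 5.33% and 4.52% of the 3 classes and in 9.65% of all promoters. These are matches of letters and do not show a bound motif.

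CM +Dox cells yielded fewer RUNX1 peaks. The 2 CM +Dox lists held 7939 and 9710 peaks at a score of 9 or more, covering 2.92 and 3.47 Mb, and the 2 Control +Dox lists held 13660 and 12347 peaks covering 4.96 and 4.30 Mb. The ratio of geometric means was 0.676. The groups did not overlap at this score but did at 20 or more, where the lists held 4575 and 7797 peaks in CM +Dox cells and 10714 and 7777 in Control +Dox cells. With 2 libraries against 2, an exact permutation test over 6 choices cannot fall below p = 0.333, which is the value it gave (two-sided; Benjamini-Hochberg adjusted p = 0.583 over 7 such tests). Read depth behind the lists is unknown, so a shorter list was not read as less binding. Median peak width was 317 and 314 bp in CM +Dox cells and 317 and 311 bp in Control +Dox cells. Of the peaks in CM +Dox replicate 1, 86.3% overlapped a peak of replicate 2, and 70.4% in the opposite direction; for Control +Dox cells these shares were 75.7% and 84.0%.

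The genes of the fusion itself were checked against the labels. At Cbfb (chromosome 8, 105170674 to 105217989) both CM +Dox libraries called 4 peaks and at Myh11 (chromosome 16, 14194527 to 14292188) 3 peaks, and neither Control +Dox library called any. RUNX1 sites were also set beside genes that mark myeloid progenitors, although a peak near a gene does not show its expression. Of 6 such markers, 2 had a site called in both CM +Dox libraries (Spi1 and Cd34) and 5 had a site called in both Control +Dox libraries (Spi1, Kit, Cd34, Cebpa and Gata2, but not Mpo). In the Control +Dox libraries, 1 of 5 lymphoid markers (Cd79a), 1 of 5 erythroid markers (Klf1) and 0 of 4 liver markers had such a site.

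Loss was more frequent than gain. The 3656 lost sites were 20.7% of all merged sites and 35.5% of the 10301 sites called in both Control +Dox libraries. Of those 10301, 48.8% were called in both CM +Dox libraries and 15.7% in 1 of them, 333 in replicate 1 and 1283 in replicate 2. The 612 gained sites were 3.47% of all merged sites and 9.02% of the 6782 sites called in both CM +Dox libraries. List length entered these counts. When each list was cut to its 7939 highest-scoring peaks, 1977 sites were lost (31.9% of control sites) and 1447 were gained (23.8% of CM +Dox sites). Counts also depended on requiring both replicates: without Control +Dox replicate 2 the lost sites numbered 5503, and the gained sites numbered 1617 without CM +Dox replicate 1, 1119 without CM +Dox replicate 2 and 1561 without Control +Dox replicate 1. Sites at the edge of the threshold were few, since 28 lost sites had a CM +Dox replicate 1 peak with a score between 7 and 9 and 5 gained sites had such a peak in Control +Dox replicate 2. The lowest score kept in CM +Dox replicate 1 was 9.03 and the highest dropped 8.95, and in Control +Dox replicate 2 they were 9.02 and 8.96.

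Loss differed by place. Among control sites lying within 1 kb of a listed gene start, 19.5% were lost (506 of 2599), compared with 39.5% of those at 1 to 10 kb, 40.2% of those at 10 to 100 kb and 44.2% of those over 100 kb away. Taking each of the 4 pairs of a CM +Dox and a Control +Dox library by itself, 26.7% to 37.5% of the control library's sites within 1 kb of a gene start were not called with CM, against 48.4% to 63.5% in the 3 farther bins. The ranges do not overlap. With lists of equal length, the lost share was 14.3% within 1 kb of a start and 33.8%, 34.9% and 40.5% in the farther bins. Among all peaks of a library, 40.0% and 34.3% lay within 1 kb of a start in CM +Dox cells and 31.9% and 23.4% in Control +Dox cells, a mean difference of 9.50 percentage points (exact permutation test, two-sided, p = 0.333, adjusted p = 0.583). Replicates of Control +Dox differed from each other by about as much as the groups did, and without Control +Dox replicate 2 the difference was 5.21 percentage points. Replicate 1 had the higher share in both groups, and at each replicate number the CM +Dox share was the higher. Whether equal numbers pair the libraries is not stated. Of gained sites 37.5% were at a gene start, of shared sites 35.3% and of lost sites 14.2%. With lists of equal length these shares were 48.5%, 25.9% and 8.60%. The gained share of CM +Dox sites by distance varied with the setting. At the main setting it was 8.28% within 1 kb of a start and 8.29% to 9.84% farther away. With lists of equal length it was 29.8% within 1 kb, against 17.8% to 21.6% in the farther bins. In single pairs, the share not called in Control +Dox replicate 1 was 13.3% and 14.1% within 1 kb and 17.4% to 25.7% farther away. For Control +Dox replicate 2 it was 36.7% and 38.9% within 1 kb, against 21.2% to 26.3%. Gene bodies held 58.8% of lost, 71.1% of gained and 69.2% of shared sites. Gene starts on chromosome 18 were not used here, so its sites were left out of the distances.

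Weakly called sites were lost more often than strongly called ones. Control sites were ordered by their mean rank in the 2 Control +Dox lists and divided into quintiles. From the lowest to the highest quintile, 49.7%, 41.7%, 38.6%, 30.1% and 17.3% were lost. Away from gene starts the 5 shares were 58.0%, 53.4%, 47.3%, 36.4% and 18.3%, and within 1 kb of a start they were 35.1%, 17.8%, 15.1%, 7.01% and 6.48%. Distal sites were lost more often than gene-start sites in each quintile. Loss nonetheless reached strong sites: of 2345 sites with a score of 50 or more in both Control +Dox libraries, 443 (18.9%) had no peak with CM, and of 678 with a score of 100 or more, 66 (9.74%). Among sites with a score of 50 or more in both CM +Dox libraries, 4 of 1224 were gained, and above 100 none of 292. Median scores were 17.6 and 24.5 for gained sites in the CM +Dox libraries and 29.7 and 24.5 for lost sites in the Control +Dox libraries. Sites of all 4 libraries had medians of 29.1 and 49.7 in CM +Dox cells and 51.9 and 34.7 in Control +Dox cells. Their merged intervals were wider, with a median of 459 bp against 317 bp for lost and 320 bp for gained sites, which follows in part from merging 4 peaks in place of 2.

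**Figure D1:**
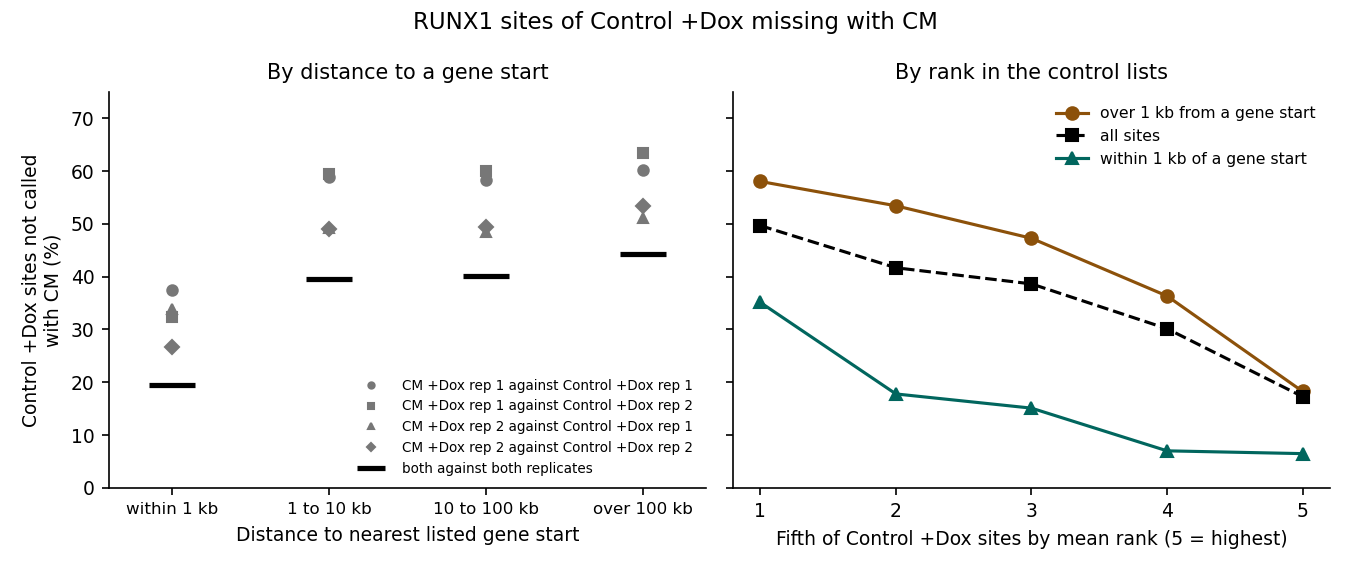
Percent of Control +Dox RUNX1 sites not called with CM, by distance to the nearest listed gene start (left; grey symbols, each pair of 1 CM +Dox and 1 Control +Dox library; black bars, sites of both Control +Dox libraries missing from both CM +Dox libraries) and by quintile of mean rank in the Control +Dox lists (right). The lowest share is at gene starts, 19.5% for both replicates, and the share lost falls from 49.7% in the lowest quintile to 17.3% in the highest.

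The 10 highest-ranked lost sites lay mostly away from gene starts. First was a site near Trpc6, which encodes a calcium-permeable cation channel (chr9:8692943-8693685, 12.2 kb from the gene and 149 kb from its start). It had no peak in either CM +Dox library and scores of 452 and 259 in the Control +Dox libraries, 452 being the highest score in the list of replicate 1. It differed from the other 9 in the uninduced libraries, since no peak was called in either CM -Dox library while the Control -Dox libraries had scores of 326 and 267. A site 659 bp wide at chr9:8487624-8488282, near the same gene, had the same pattern, with scores of 144 and 131 in Control +Dox cells. In the 400 kb from 8400001 to 8800000 of chromosome 9, a window chosen after these values were seen, no CM library of either antibody and with or without doxycycline had a peak. Control libraries had 3 or 4 RUNX1 peaks and 5 to 14 CHD7 peaks there. Whether this stretch of DNA is present in the CM clone was not measured.

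The other 9 sites were called in both CM -Dox libraries. Near Actbl2, which encodes a beta-actin-like protein, CM -Dox scores were 194 and 193 and Control +Dox scores 332 and 198 (chr13:111043611-111044106). A site near Map4k3, a kinase upstream of JNK and mTOR signalling (chr17:80772470-80772873), had scores of 196 and 221 in CM -Dox cells and of 231 and 166 in Control +Dox cells. A site inside Pparg, the gene of a lipid-sensing nuclear receptor (chr6:115434019-115434440), was called at 178 and 210 in CM -Dox cells and at 207 and 144 in Control +Dox cells. Exon positions were not used here, so intronic and exonic sites are not separated. The remaining sites were near Mad2l1, a spindle checkpoint gene, near Nln, a peptidase gene, in Mctp1, and near Aff3, Mylip and Slc24a5. Their Control +Dox scores were all 148 or higher. Near Mylip, which encodes a ubiquitin ligase for the LDL receptor, CM -Dox scores were lower, at 21.9 and 23.2, than the Control -Dox scores of 186 and 182. Both CM +Dox CHD7 libraries had a peak at 0 of the 10 sites, and both Control +Dox CHD7 libraries at 9 of the 10. The exception was the site near Aff3, which had no CHD7 peak. At the Mctp1 site 1 CM +Dox CHD7 library had a peak. These 10 do not stand for all lost sites. Of the 3656, both Control +Dox CHD7 libraries had a peak at 939. Among those 939, CHD7 was called in both CM +Dox libraries at 383 (40.8%) and in neither at 307 (32.7%).

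**Figure D2:**
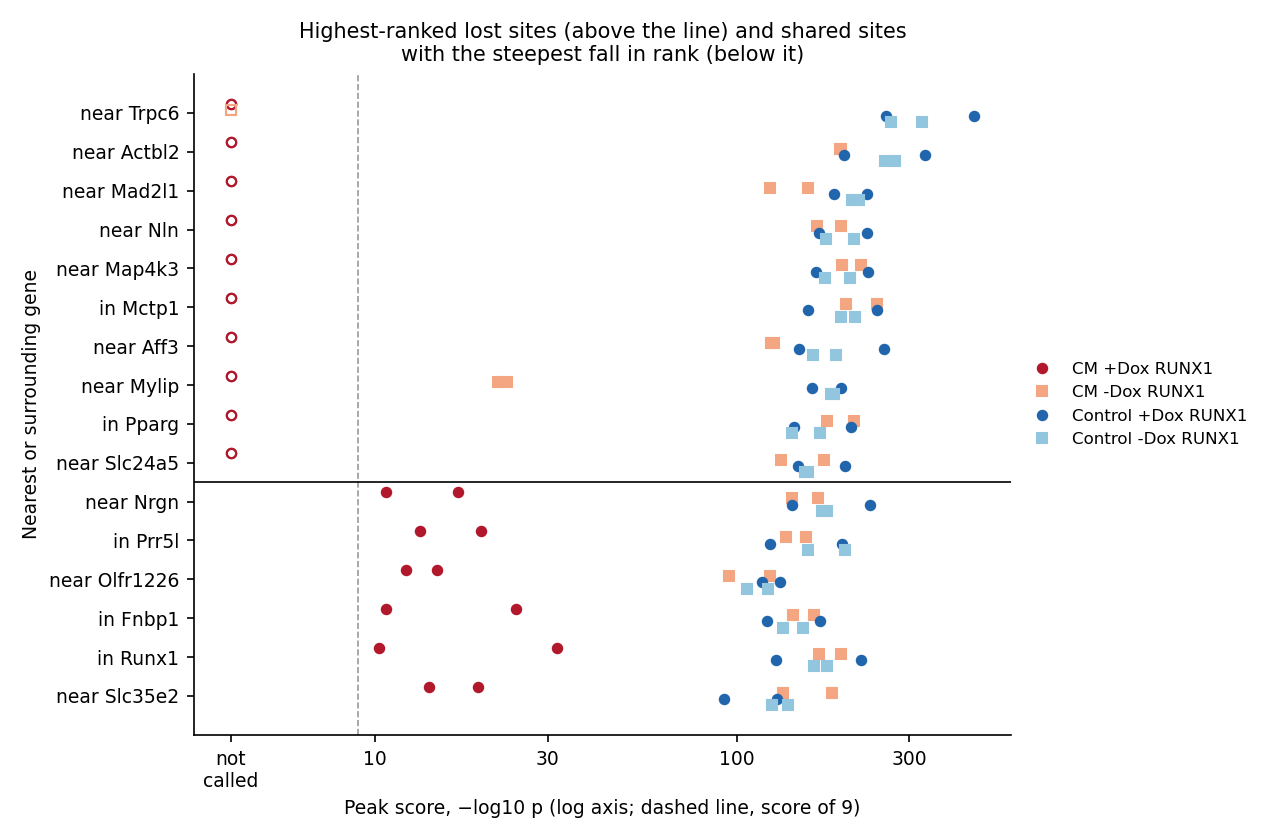
RUNX1 peak score (−log10 p, log axis) at the 10 highest-ranked lost sites and at the 6 shared sites whose rank fell most, in 2 libraries of each of 4 conditions; open symbols at the left mark libraries with no peak at a score of 9 or more. CM -Dox scores lie beside the control scores at most sites, and the site near Trpc6 lacks a peak in all CM libraries.

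Gained sites had lower scores. The first by rank was the site in Cbfb at chr8:105178451-105178839, with scores of 81.9 and 110 in CM +Dox cells, 27.3 and 21.9 in CM -Dox cells and no Control +Dox peak. The third was in Myh11 at chr16:14200587-14201179, with 70.2 and 70.7 in CM +Dox cells, 17.7 in CM -Dox replicate 1 alone and likewise no Control +Dox peak. Both genes are the ones joined in the construct. CHD7 was called at both intervals in both CM +Dox libraries and in neither Control +Dox library. Whether reads of the integrated cDNA contributed to these peaks was not tested. Outside the construct's genes, a site in Tmem104 had CM +Dox scores of 50.3 and 98.0 and lay 0.888 kb from the start of Nat9. It was also called without doxycycline in both clones. A site in Tcf7l2, which encodes a transcription factor of Wnt signalling, lay on chromosome 19 (chr19:55803155-55803594), where gained sites were more frequent. It had scores of 45.6 and 73.7 in CM +Dox cells and 21.4 and 23.9 in CM -Dox cells. Tcf4, the gene of an E-protein (chr18:69575259-69575875), had scores of 38.1 and 85.0 in CM +Dox cells and 16.7 and 30.1 in CM -Dox cells. In Ubash3b, which encodes a phosphatase that dampens tyrosine kinase signalling (chr9:41152859-41153219), scores were 34.4 and 105 in CM +Dox cells. None of the 6 other RUNX1 libraries called the Ubash3b site. The remaining 4 of the 10 were near Marcks, near 2210010C04Rik, in Plekhg5 and in Cdh23.

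At the 5029 sites called in all 4 libraries, ranks were compared, because ranks within the same set of sites do not depend on list length. Spearman's rho across these sites was 0.790 between the CM +Dox replicates, 0.806 between the Control +Dox replicates and 0.332 to 0.552 between libraries of different groups. Sites share their library's depth, so the coefficients are descriptions. A site ranked higher in both CM +Dox than in both Control +Dox libraries in 1614 cases (32.1%) and lower in 1545 (30.7%). Of shared sites within 1 kb of a gene start, 44.0% ranked higher and 19.02% lower with CM, and of those farther away 25.5% ranked higher and 37.0% lower. Gene-start sites had a mean percentile of 51.9 and 42.6 in CM +Dox cells and of 42.8 and 31.8 in Control +Dox cells, where 100 is the highest rank. These groups overlapped (exact permutation test, two-sided, p = 0.667, adjusted p = 0.933). At each replicate number the CM +Dox value was the higher, although nothing states that equal numbers pair the libraries.

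The steepest falls in rank included a site in Runx1 itself. This site, at chr16:92620738-92621619 and 75.7 kb from the nearest listed start of the gene, scored 10.3 and 31.8 in CM +Dox cells and 221 and 129 in Control +Dox cells. In CM -Dox cells it scored 169 and 194. Runx1 as a whole kept 6 and 7 peaks in CM +Dox cells, against 9 and 9 in Control +Dox cells, with 5 of its 11 sites called in all 4 libraries and 3 lost. Its strongest peak scored 168 and 292 in CM +Dox cells and 250 and 187 in Control +Dox cells, which overlap. The steepest fall of all was at a site 1.41 kb from Nrgn, which encodes neurogranin, a calmodulin-binding protein (chr9:37554159-37554620). Its scores were 10.7 and 16.9 in CM +Dox cells and 234 and 142 in Control +Dox cells. Sites in Prr5l, a gene of an mTOR complex 2 partner, near Olfr1226, in Fnbp1 and near Slc35e2 followed. Among the 6, CM +Dox scores ran from 10.3 to 31.8 and Control +Dox scores from 92.1 to 234. The sites were picked for this fall in the same libraries, so the gap is a description. CM -Dox scores at the same sites were 95.0 to 194.

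Rises in rank were led by a site at the start of Ahsa2, a gene of an HSP90 co-chaperone (chr11:23497737-23498386). Its scores were 78.3 and 74.5 in CM +Dox cells and 22.5 and 10.8 in Control +Dox cells, but 59.4 in Control -Dox replicate 1. Second was a site 16.1 kb from Slpi, which encodes an inhibitor of neutrophil elastase (chr2:164372609-164373067). It scored 102 and 238 in CM +Dox cells and 21.1 and 25.9 in Control +Dox cells, and 61.1 and 105 in CM -Dox cells. A site near C3ar1, which encodes the receptor of complement fragment C3a (chr6:122862873-122863296), scored 64.3 and 204 in CM +Dox cells and 38.9 and 14.3 in Control +Dox cells. The others were in Actr5, at the start of Cdv3 and at the start of Cnnm2, which lies on chromosome 19. The most strongly called shared sites included those near Reep3, in Dmwd, in Itsn1, near Atp6v0a1, in Pebp4, near Yae1d1, in Styk1, in Selp, which encodes P-selectin, and near Fth1, which encodes the ferritin heavy chain. The site near Reep3 scored 301 and 416 in CM +Dox cells and 338 and 252 in Control +Dox cells.

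Uninduced cells, whose libraries did not enter the definition of lost and gained sites, showed most lost sites in the fusion clone before induction. CM -Dox libraries called 75.2% and 81.8% of the 3656 lost sites, and Control -Dox libraries called 91.5% and 91.0%. At a score of 9 or more their lists held 13399 and 16163 peaks in CM -Dox cells and 14010 and 13550 in Control -Dox cells. The CM +Dox lists held 7939 and 9710. A longer list can overlap more sites, and the shares were not corrected for length. Names of peaks listed for Control -Dox replicate 1 hold a +Dox tag that its label does not, and the label was followed. Of the lost sites, 2614 (71.5%) were called in both CM -Dox libraries, 513 in 1 and 529 (14.5%) in neither. All 4 uninduced libraries called 2394 of the lost sites (65.5%). Another 360 were called in both Control -Dox libraries and in no CM library. Strong sites among them were in Gpd2, near Sema6d, in Dcc and near Ednrb, the last on chromosome 14. Of gained sites, 41.5% and 56.2% were called in the CM -Dox libraries and 29.7% and 16.2% in the Control -Dox libraries. Gained sites called in none of the other RUNX1 libraries numbered 174 (28.4%), and 98 more were called in both CM -Dox libraries and in no control library. Shared sites were called in 97.5% and 98.5% in CM -Dox cells and in 98.7% and 96.9% in Control -Dox cells.

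CHD7, an ATP-dependent nucleosome remodeller, was profiled in the same cells and tests the site classes with another antibody. CHD7 peaks overlapped 20.3% and 28.0% of lost RUNX1 sites in CM +Dox cells and 34.3% and 43.1% in Control +Dox cells. At gained sites the shares were 48.0% and 60.3% in CM +Dox cells and 22.5% and 29.7% in Control +Dox cells. At sites of all 4 libraries they were 52.1% and 67.2% in CM +Dox cells and 57.0% and 63.2% in Control +Dox cells. The groups did not overlap at lost and at gained sites, with mean differences of -14.5 and 28.0 percentage points, and overlapped at shared sites, with a difference of -0.44 (exact permutation tests, two-sided, p = 0.333, 0.333 and 1, with adjusted p = 0.583, 0.583 and 1). At lost sites the difference was -9.28 without Control +Dox RUNX1 replicate 2, and at gained sites it was 15.4 without Control +Dox RUNX1 replicate 1 and 16.8 with RUNX1 lists of equal length. The CHD7 difference at shared sites changed sign with the library left out, between -8.00 without CM +Dox CHD7 replicate 2 and 7.13 without CM +Dox CHD7 replicate 1. With CHD7 lists cut to equal length, the difference was -15.8 at lost, 21.1 at gained and -7.56 at shared sites.

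Site by site, CHD7 was called in both Control +Dox libraries at 939 lost RUNX1 sites. Of these, 383 (40.8%) kept a peak in both CM +Dox CHD7 libraries and 307 (32.7%) in neither. At shared sites with CHD7 in both Control +Dox libraries, 1806 of 2455 (73.6%) were called in both CM +Dox libraries and 199 (8.11%) in neither. The lost sites again divided by place: within 1 kb of a gene start, CHD7 was called in both CM +Dox libraries at 140 of 199 (70.4%), and farther away at 232 of 712 (32.6%). At gained sites, CHD7 was called in both CM +Dox libraries at 91 of the 97 sites that had it in both Control +Dox libraries. Where neither Control +Dox library had CHD7, both CM +Dox libraries called it at 111 of 389 gained sites (28.5%), 179 of 1439 shared sites (12.4%) and 46 of 1768 lost sites (2.60%). Away from gene starts the share at gained sites was 42.9% (91 of 212).

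**Figure D3:**
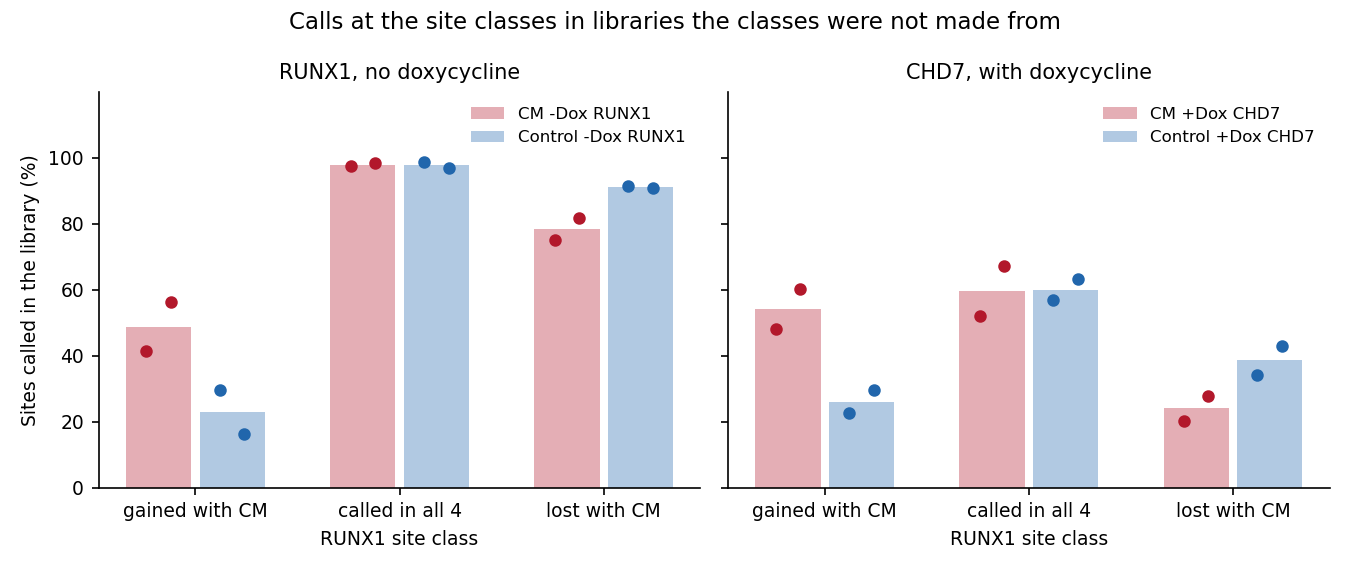
Percent of gained, shared and lost RUNX1 sites called in RUNX1 libraries without doxycycline (left) and overlapped by CHD7 peaks with doxycycline (right); points are libraries and bars the mean of 2. CM libraries call more gained sites and fewer lost sites than control libraries in both panels, and at shared sites the libraries overlap.

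Chromosomes 14 and 19 stood apart from the rest. On chromosome 14, 57.5% of control sites were lost (211 of 367), and on chromosome 19, 19.5% (60 of 307), with 30.7% to 43.3% on each of the other 18 chromosomes. Gained sites were 22.2% of the CM +Dox sites of chromosome 19 (76 of 343) and 5.59% of those of chromosome 14, with 6.14% to 14.5% elsewhere. With lists of equal length, 55.1% of sites on chromosome 14 and 15.2% of those on chromosome 19 were lost, against 25.2% to 42.1% elsewhere. The gained share was then 40.6% on chromosome 19 and 20.2% on chromosome 14, the second within the 18.3% to 31.9% of the other chromosomes. The pattern was present without doxycycline. CM -Dox libraries called 59.7% and 68.9% of the control sites of chromosome 14 and 97.4% and 98.4% of those of chromosome 19, against 86.8% to 95.1% on other chromosomes. Control -Dox libraries called 91.2% to 97.1% of the control sites on every chromosome.

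The share of a library's peaks on each chromosome gave the same picture for both antibodies. Of RUNX1 peaks, 2.01% to 2.23% lay on chromosome 14 in the 4 CM libraries and 3.54% to 3.58% in the 4 control libraries, a ratio of 0.593. On chromosome 19 they were 4.57% to 5.10% in CM libraries and 2.83% to 3.17% in control libraries, a ratio of 1.61. CHD7 peaks had ratios of 0.362 on chromosome 14 and 3.16 on chromosome 19. The ranges of CM and control libraries do not overlap in these 4 cases. Other chromosomes had ratios of 0.908 to 1.07 for RUNX1 and 0.901 to 1.25 for CHD7. An exact permutation test of 4 libraries against 4 (two-sided, 70 choices) gave its smallest value, p = 0.0286, for chromosomes 14 and 19 with either antibody, for chromosome 16 with RUNX1 and for chromosomes 2 and 3 with CHD7, and the adjusted p over 20 chromosomes was 0.190 for RUNX1 and 0.143 for CHD7. These libraries combine cells with and without doxycycline, and in each condition the CM values lay apart from the control values. Shared sites of chromosome 19 also scored higher, with a median log2 score difference of 0.37 between CM +Dox and Control +Dox cells. Other chromosomes had -0.26 to 0.03, and chromosome 14, at -0.25, did not stand apart from them. Over sites called in all RUNX1 libraries, the differences without doxycycline were 0.003 on chromosome 14, 0.785 on chromosome 19 and 0.16 to 0.35 elsewhere. The number of copies of each chromosome in the 2 clones was not measured. Without both chromosomes there were 3385 lost and 528 gained sites.

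**Figure D4:**
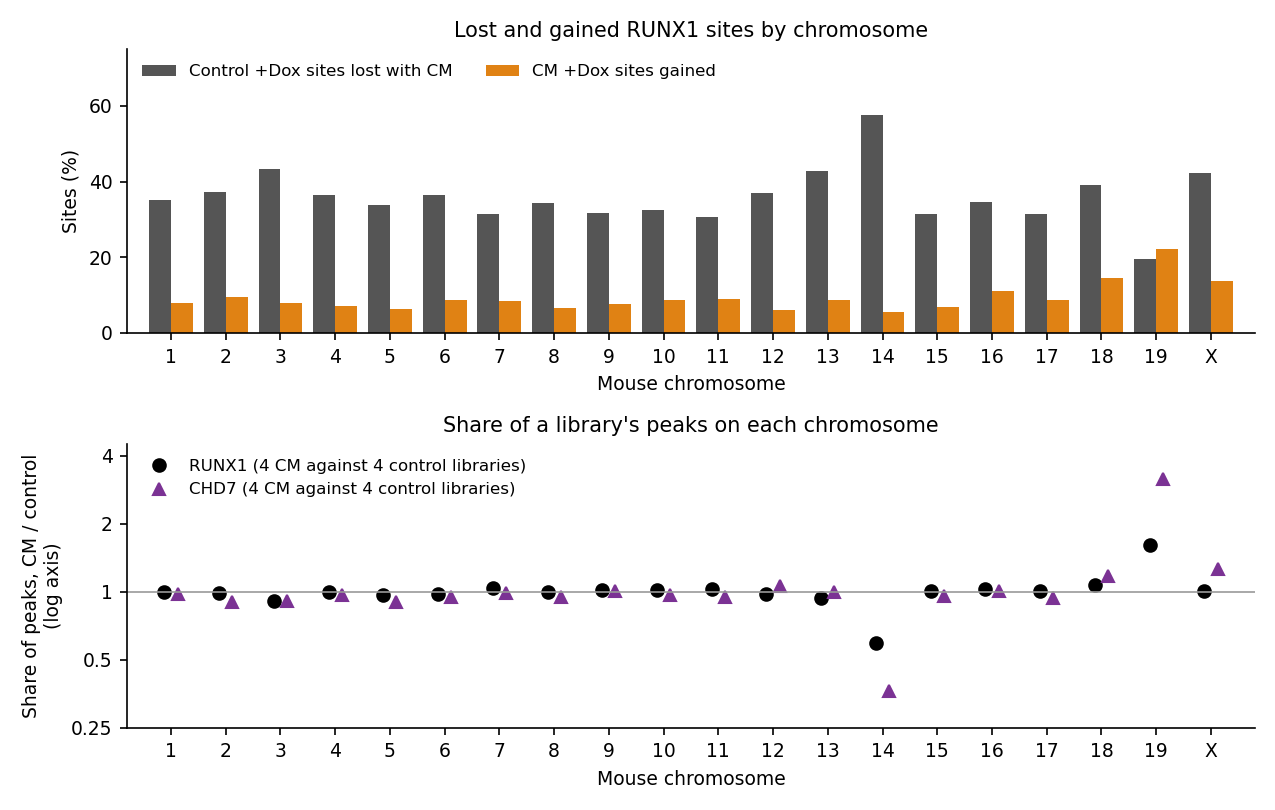
Percent of control sites lost and of CM +Dox sites gained on each mouse chromosome (top), and the mean share of a library's peaks on the chromosome in 4 CM libraries divided by that in 4 control libraries, for RUNX1 and CHD7 (bottom, log axis). Chromosome 14 has the highest lost share, 57.5%, and chromosome 19 the lowest, 19.5%, and the 2 depart from a ratio of 1 in opposite directions.

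**Figure D5:**
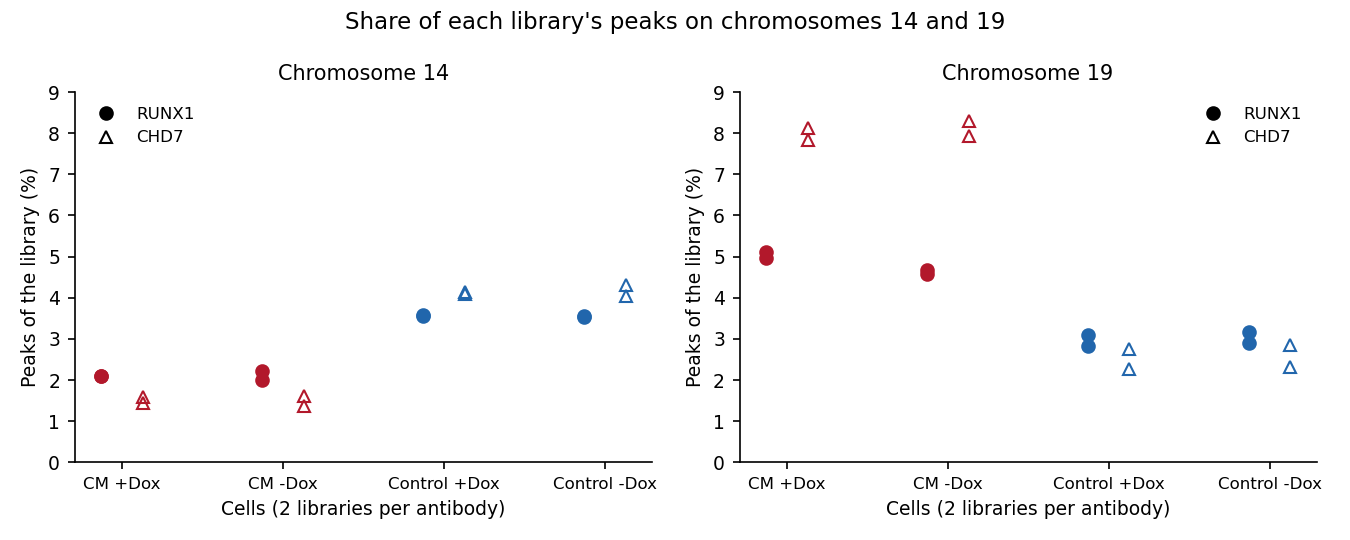
Percent of each library's RUNX1 (filled circles) and CHD7 (open triangles) peaks on chromosomes 14 and 19, by cells; each point is 1 library. CM libraries lie below control libraries on chromosome 14 and above them on chromosome 19, with and without doxycycline.

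Genes were then read through their sites. A gene was linked to sites in its body or within 5 kb, and 6267 of 21887 protein-coding genes had a site called in both Control +Dox libraries. Of these, 1147 (18.3%) had no peak in either CM +Dox library. Of 5335 genes with a site in both CM +Dox libraries, 254 (4.76%) had none in either Control +Dox library. Loss of every site was less frequent where a gene had more sites, at 22.7% of genes with 1 control site, 10.1% of those with 2 and 3.96% of those with 3 or more. With lists of equal length 600 genes lost every site. The number was 1722 when CM +Dox replicate 2 was left out and 1926 when Control +Dox replicate 2 was left out. Rab27b, which encodes a GTPase of granule and vesicle secretion (chromosome 18, 69979131 to 70141633), lost all 5 of its reproducible control sites. CM +Dox lists held no peak there and Control +Dox lists 5 and 6, the highest scoring 137 and 116. Lrmp, Nsmaf and Wipf1, the last a partner of the Wiskott-Aldrich syndrome protein, each lost 4 of 4 reproducible sites. Spns2, which encodes a sphingosine-1-phosphate transporter, lost 6 sites and Pde4d, a cAMP phosphodiesterase gene, lost 6, while both kept shared sites. In Prkca, the gene of protein kinase C alpha, peaks numbered 2 and 2 in CM +Dox cells and 8 and 9 in Control +Dox cells, with best scores of 28.8 and 46.9 in CM +Dox cells and 271 and 214 in Control +Dox cells. These genes were picked for their lost sites, so their values are a description.

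In the RUNX and core binding factor group, 7 genes had a control site and 0 of them lost every site, with 18.3% of all genes as the background. Several of the 7 have 3 or more control sites, and 3.96% of all such genes lost every site, so the count is not read as a result. Of their 26 control sites 5 were lost, where 33.0% of all gene-linked control sites were. Cbfa2t3, which encodes the corepressor ETO2, had best scores of 242 and 280 in CM +Dox cells and 244 and 159 in Control +Dox cells. Runx2 had 64.0 and 114 in CM +Dox cells and 118 and 98.9 in Control +Dox cells, and Tle3, a Groucho corepressor gene, had 62.6 and 71.1 in CM +Dox cells and 140 and 117 in Control +Dox cells, without overlap. Chd7 had no peak in CM +Dox replicate 1 and 2 in replicate 2, against 2 and 2 in Control +Dox cells.

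The count for haematopoietic transcription factor genes is small and is not read as a result. Of 15 with a control site, 1 lost every site, against 18.3% of all genes. That was Ikzf1, which encodes the lymphoid regulator Ikaros, with no peak in CM +Dox cells and best scores of 43.6 and 56.9 in Control +Dox cells. At Spi1, the gene of PU.1, best scores were 104 and 142 in CM +Dox cells and 135 and 73.1 in Control +Dox cells. Nfe2, an erythroid and megakaryocyte factor gene, had 181 and 270 in CM +Dox cells and 182 and 111 in Control +Dox cells, and Zfpm1, which encodes the GATA partner FOG1, had 128 and 128 in CM +Dox cells and 209 and 156 in Control +Dox cells. The groups overlap at Spi1 and Nfe2 and not at Zfpm1. Gata2, Fli1, Tal1 and Myb, progenitor regulators, had peaks in CM +Dox replicate 2 but not in replicate 1.

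Megakaryocyte and mast cell genes lost every site in 4 of the 9 genes with a control site, against 18.3% of all genes. The 4 were Gp9 and Vwf, which encode a platelet glycoprotein and von Willebrand factor, and the mast cell and basophil protease genes Cpa3 and Mcpt8. Vwf, Cpa3 and Mcpt8 each had 1 control site, and 22.7% of all genes with 1 control site lost every site. Of the list's 15 control sites 8 were lost, against 33.0% of all gene-linked control sites. Gp9 had 2 sites with best scores of 44.6 and 42.0 in Control +Dox cells. Itgb3, which encodes integrin beta 3, kept 2 of its 5 sites in all 4 libraries, and its best peak scored 55.0 and 104 in CM +Dox cells and 322 and 217 in Control +Dox cells. Gp1ba, a subunit gene of the platelet receptor for von Willebrand factor, had 15.2 and 29.3 in CM +Dox cells and 119 and 101.4 in Control +Dox cells. Itga2b and Pf4, 2 further platelet genes, kept peaks in all 4 libraries. The count is small and is not read as a result, and Mcpt8 lies on chromosome 14.

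Myeloid differentiation genes lost every site in 2 of 9, against 18.3% of all genes. These were Cebpe, a granulocyte factor gene on chromosome 14, and Itgb2, the gene of integrin beta 2. Cebpe had no peak in CM +Dox cells and best scores of 104 and 91.5 in Control +Dox cells. Csf2rb, which encodes the shared receptor chain of GM-CSF, IL-3 and IL-5, was called in CM +Dox cells alone, at 15.5 and 15.3. Prtn3, the gene of proteinase 3, kept best scores of 90.2 and 174 in CM +Dox cells and 106 and 69.4 in Control +Dox cells, and Ltf, the lactoferrin gene, had 46.3 and 127 in CM +Dox cells and 18.3 and 40.2 in Control +Dox cells. Cebpd and Fcgr3 were also called in all 4. Among stem and progenitor surface genes, 1 of 7 lost every site, its only one, against 18.3% of all genes. That was Kit, the stem cell factor receptor gene, at 26.9 and 23.1 in Control +Dox cells. Cd34 scored 69.6 and 164 in CM +Dox cells and 74.3 and 61.2 in Control +Dox cells. Angpt1, Flt3 and Itga6 were called in all 4.

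Chromatin remodeller genes lost 12 of their 22 control sites, against 33.0% of all gene-linked control sites. Of 10 genes, 2 lost every site, against 18.3% of all genes. These were Chd8, on chromosome 14, with best scores of 84.7 and 32.4 in Control +Dox cells, and Smarca4, which encodes the BRG1 ATPase, with 39.2 and 20.4 in Control +Dox cells. Arid1b, a BAF complex subunit gene, kept 126 and 215 in CM +Dox cells against 139 and 107 in Control +Dox cells, and Chd2, Chd4 and Smarca2 were called in all 4. Signalling genes lost every site in 0 of 14, against 18.3% of all genes. Jak2, on chromosome 19, and Socs1, an inhibitor of JAK kinases, were called in CM +Dox cells alone. There Jak2 scored 26.9 and 28.6 and Socs1 17.0 and 12.3. Il6ra, which encodes the interleukin 6 receptor, had 93.4 and 204 in CM +Dox cells and 200 and 152 in Control +Dox cells, and Vav1, Dusp6 and Jak1 were called in all 4.

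Of the remaining groups, cell cycle genes lost every site in 2 of 18, Myc and the replication helicase gene Mcm5. At Myc the best scores were 16.0 and 13.6 in Control +Dox cells. Ccnd3, E2f2, Cdk6 and Cdk2 were called in all 4. Ribosomal protein genes lost every site in 1 of 12, Rpl36, and Rpl18, Rps19, Rpl3 and Rps14 were called in all 4. Leukaemia-mutated epigenetic genes lost every site in 1 of 11, Crebbp, which encodes a histone acetyltransferase, at 40.3 and 28.7 in Control +Dox cells. Kmt2d and Asxl1 were called in all 4, and Bcor, a Polycomb-complex corepressor gene, had best scores of 17.8 and 21.9 in CM +Dox cells and 91.2 and 81.4 in Control +Dox cells. Lymphoid genes had a control site in 2 of 15 genes, Cd3d and Cd79a, and erythroid genes in 3 of 11, Klf1, Epor and Tfrc. None of these 5 lost every site, and the 12 liver genes had no site. Each count of genes is to be set against the 18.3% of all genes that lost every site.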

How the data were processed

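ChIP was made from cells fixed with 1% formaldehyde, and libraries were selected for fragments of 150 to 400 bp, per the labels' protocols. Bowtie2 2.0.6, MACS2 2.0.10 and mm10 are named in the submitters' processing notes; read filters, the background library and depth are not given in the sources used. The authors deposited 1 peak list per library, and its score is −log10 of the peak's p-value, which the thresholds written in the peak names (1e-07 or 1e-09) bear out. Unequal thresholds were brought to a score of 9 in all RUNX1 lists, which removed 201 peaks of CM +Dox replicate 1 and 256 of Control +Dox replicate 2. The 4 to 6 mitochondrial peaks of a list were left out. CHD7 lists were used as deposited. Scores and p-values were used to rank and filter peaks, and differences between libraries in score also depend on depth.

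Sites were called in a library where a peak overlapped by 1 bp. Genes came from RefSeq's table for GRCm38.p6. Listed gene starts numbered 21263 and covered 17492 genes. The site code was tested on simulated peaks (Python 3.11.15, numpy 2.4.6, scipy 1.17.1). Named sites are the 10 of each class with the highest mean percentile score, named genes up to 4 per list by the rank of their best peak, together with Runx1, Chd7, Cbfb, Myh11 and any gene behind a count of 5 or fewer. A site and a gene that this rule names are not reported here. The 6 sites with the steepest rise or fall in rank and the genes with most lost sites were chosen after their values were seen. Members and the 13 gene lists (206 of 207 genes matched) were chosen with earlier results of these data known. No p-value was given to a site, gene or list. The p-values compare libraries, whose spread may be technical. Alternatives were a score of 20, the lists as deposited, lists of equal length, other overlaps and distances, pairing by replicate number, and leaving out each library, the construct's genes or chromosomes 14 and 19.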

Additional observations from a re-analysis of the deposited data

Results flagged for a closer look

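Chromosome 19 carried 8.05% of CHD7 peaks in the 4 CM libraries (7.85% to 8.29%), against 2.27% to 2.86% in the 4 control libraries. It was picked out because the number of CHD7 peaks on a chromosome does not enter the definition of lost and gained RUNX1 sites, and the CM value lies above the control level. On chromosome 14 the CHD7 shares were 1.37% to 1.62% in CM libraries and 4.03% to 4.30% in control libraries. Of the 529 lost RUNX1 sites called in neither CM -Dox library, 95 (17.96%) lay on chromosome 14 and 5 on chromosome 19. Chromosome 14 held 367 of the 10301 control sites and 211 of the 3656 lost sites, and chromosome 19 held 307 and 60. The copy number of either chromosome was not measured, and its part in the results was not tested.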

How the results depend on the processing

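The alternatives gave 131 further values of 10 results. With the +Dox RUNX1 lists cut to equal length, their peak numbers are equal by construction. Then 1977 sites were lost, 1447 gained and 600 genes lost every site. Of these lost sites, 88.9% were called in CM -Dox cells (78.5% as reported). The CM -Dox lists were not cut and held 13399 and 16163 peaks, so this share is not corrected for their length. At a score of 20 or more, 2773 sites were shared, peak numbers overlapped between groups and that CM -Dox share was 84.2%. Leaving out 1 library gave 3992 to 5503 lost sites, 816 to 1617 gained sites, 1405 to 1926 genes, a CM -Dox share of 63.0% to 82.2% and a CHD7 difference at shared sites of -8.00 to 7.13 percentage points; requiring fewer libraries raises the counts by construction. Of gained sites, 225 were called in neither CM -Dox library, an alternative chosen after seeing the data. Replicate numbers pair the libraries by number only. The replicates' log2 score differences correlated at 0.42 between the groups over the 5029 shared sites. The replicate block, which compares equal numbers and averages the 2 pairs, gave 6320 lost sites, 2137 gained sites, 2226.5 genes, a CM -Dox share of 70.4% and a CHD7 difference of 0.30 at shared sites, against -0.44 as reported; it changed no call, since its smallest p, 0.5, cannot pass (exact sign-flip test). The cause of the changes beyond construction was not tested. Unknown depth limits what a missing peak means, and tests of 2 libraries against 2 cannot fall below p = 0.333 (exact permutation).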
